A study of Caenorhabditis elegans with 2 samples.

Results

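The regions described here are all those on chromosome X in the combined (pooled) list of a chromatin immunoprecipitation and sequencing (ChIP-seq) experiment for ZAG-1 in Caenorhabditis elegans. They were chosen by chromosome alone, with no limit on signal, and number 832 of the 4010 regions in the pooled list, against 3178 on the 5 autosomes. Both libraries came from whole L4 larvae of strain OP83, a mixed-sex population of genotype unc-119(ed3) III with the transgene wgIs83, which encodes ZAG-1 fused to eGFP. The series has 1 group, 2 biological replicates and no second genotype or stage, and its control reads were not used here. The pooled list was labelled as peaks together with background, so a listed region is not by itself a binding site. A subset of 246 regions, 69 of them on X, was kept by the authors' analysis of reproducibility between replicates (irreproducible discovery rate, IDR). Because whole animals were used, the cells in which a region was bound cannot be told apart, and the native ZAG-1 protein was not assayed. The lists hold no read counts, so the depth of each library is unknown.

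ZAG-1 is the worm member of the ZEB family, transcription factors with zinc fingers and a homeodomain that act in the differentiation of neurons. Chromosome X differs from the autosomes in its own biology: in hermaphrodites a condensin-like dosage compensation complex binds along it and lowers its transcription. That complex is loaded at recruitment elements (rex sites), which hold clustered copies of a short GC-rich motif, and it is controlled through the switch gene xol-1. X also carries many of the worm's transfer RNA (tRNA) genes, which are short and are transcribed by RNA polymerase III. No list of recruitment elements was among the files, so no region is called one here.

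The 10 strongest X regions are shown first because they led the pooled list and because several share a sequence. Each line gives the nearest protein-coding gene, the position in ce11 (the WBcel235 assembly) and the 200 bases around the summit, 5′ to 3′ on the plus strand of the RefSeq sequence. Capitals mark matches, on either strand and with at most 1 mismatch, to the word ATCGCGCAGGGA (reverse complement TCCCTGCGCGAT), which 7 of the 15 strongest X regions held exactly. A word that overlaps it in all but 1 base was also in 7 of them.
W02H3.3, chrX:11094092-11094291: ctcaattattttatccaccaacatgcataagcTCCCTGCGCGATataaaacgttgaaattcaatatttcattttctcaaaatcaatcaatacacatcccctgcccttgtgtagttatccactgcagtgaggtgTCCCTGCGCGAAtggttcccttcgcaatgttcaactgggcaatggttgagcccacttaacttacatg
K02D3.1, chrX:13700764-13700963: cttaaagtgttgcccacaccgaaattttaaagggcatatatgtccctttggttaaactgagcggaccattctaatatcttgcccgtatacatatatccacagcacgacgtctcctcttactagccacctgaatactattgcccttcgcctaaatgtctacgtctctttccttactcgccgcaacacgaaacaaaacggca
cest-16, chrX:6296477-6296676: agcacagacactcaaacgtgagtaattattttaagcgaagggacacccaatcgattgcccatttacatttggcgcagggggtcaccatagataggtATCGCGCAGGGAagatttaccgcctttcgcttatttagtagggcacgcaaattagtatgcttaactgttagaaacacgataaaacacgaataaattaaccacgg
ZK899.6, chrX:9465768-9465967: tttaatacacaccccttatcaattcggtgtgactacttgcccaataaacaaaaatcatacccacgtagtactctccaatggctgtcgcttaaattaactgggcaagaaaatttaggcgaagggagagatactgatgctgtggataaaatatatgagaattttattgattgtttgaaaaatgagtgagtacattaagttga
F20B6.9, chrX:4209162-4209361: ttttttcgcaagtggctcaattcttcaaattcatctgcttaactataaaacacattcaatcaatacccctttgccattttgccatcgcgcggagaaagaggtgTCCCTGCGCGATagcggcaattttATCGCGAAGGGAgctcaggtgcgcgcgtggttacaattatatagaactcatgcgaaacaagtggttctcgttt
nspc-17, chrX:14525783-14525982: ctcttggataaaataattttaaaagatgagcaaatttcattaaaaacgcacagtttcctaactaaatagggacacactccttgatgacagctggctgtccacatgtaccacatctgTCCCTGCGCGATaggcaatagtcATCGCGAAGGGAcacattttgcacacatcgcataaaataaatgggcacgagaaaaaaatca
xol-1, chrX:8036373-8036572: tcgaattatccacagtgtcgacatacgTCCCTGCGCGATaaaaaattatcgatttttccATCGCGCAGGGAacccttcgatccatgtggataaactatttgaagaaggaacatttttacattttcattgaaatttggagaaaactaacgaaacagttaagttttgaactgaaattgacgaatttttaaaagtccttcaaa
T27A8.7, chrX:16056502-16056701: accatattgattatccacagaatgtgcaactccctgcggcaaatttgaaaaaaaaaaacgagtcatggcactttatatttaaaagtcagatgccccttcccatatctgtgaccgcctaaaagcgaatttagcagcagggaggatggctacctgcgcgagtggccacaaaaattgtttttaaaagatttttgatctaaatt
Y41G9A.17, chrX:2997001-2997200: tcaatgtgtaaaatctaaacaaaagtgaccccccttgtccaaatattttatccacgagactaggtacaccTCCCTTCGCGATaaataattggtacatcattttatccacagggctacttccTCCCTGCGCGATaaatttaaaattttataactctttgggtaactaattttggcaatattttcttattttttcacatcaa
F55G7.5, chrX:11937442-11937641: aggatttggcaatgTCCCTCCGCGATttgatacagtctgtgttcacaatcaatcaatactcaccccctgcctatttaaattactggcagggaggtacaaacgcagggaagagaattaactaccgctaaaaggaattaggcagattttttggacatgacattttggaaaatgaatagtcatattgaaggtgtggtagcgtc

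The next set shows the 3 strongest X regions that lay upstream of a protein-coding gene start (within 1000 bp) and held GAGAGA or its reverse complement. Capitals mark unbroken runs of 6 or more bases in which G and A, or T and C, alternate. bet-2 encodes a bromodomain protein and puf-9 an RNA-binding protein of the Pumilio family.
F28C10.3, chrX:535858-536057: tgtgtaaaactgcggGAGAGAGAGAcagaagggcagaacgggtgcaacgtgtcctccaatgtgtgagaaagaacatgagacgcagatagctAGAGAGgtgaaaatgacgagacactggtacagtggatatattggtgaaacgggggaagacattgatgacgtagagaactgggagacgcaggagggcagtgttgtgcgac
bet-2, chrX:10568844-10569043: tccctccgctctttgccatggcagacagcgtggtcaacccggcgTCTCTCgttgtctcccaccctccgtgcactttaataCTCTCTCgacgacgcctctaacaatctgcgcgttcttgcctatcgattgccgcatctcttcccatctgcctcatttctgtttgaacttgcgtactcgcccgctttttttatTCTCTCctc
puf-9, chrX:5841130-5841329: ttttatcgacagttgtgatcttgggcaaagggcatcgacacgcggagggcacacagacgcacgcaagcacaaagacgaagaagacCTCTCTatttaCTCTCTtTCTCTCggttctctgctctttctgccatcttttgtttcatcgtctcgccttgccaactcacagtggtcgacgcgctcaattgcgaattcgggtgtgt

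The last set shows 3 of the strongest X regions with a summit within 50 bp of a tRNA gene, named by the nearest protein-coding gene. Capitals mark the part of the nearest tRNA gene that falls inside the 200 bases, for tRNA-Gly, tRNA-Lys and tRNA-Pro in this order. Another tRNA gene, M02F4.t2 for tRNA-Glu, reaches into the left end of the M02F4.2 window and is left in lower case.
M02F4.2, chrX:3036026-3036225: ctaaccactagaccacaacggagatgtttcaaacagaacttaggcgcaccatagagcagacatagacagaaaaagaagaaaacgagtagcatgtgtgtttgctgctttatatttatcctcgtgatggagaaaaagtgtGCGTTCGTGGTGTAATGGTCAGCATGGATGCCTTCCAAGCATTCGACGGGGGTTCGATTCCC
col-181, chrX:12106156-12106355: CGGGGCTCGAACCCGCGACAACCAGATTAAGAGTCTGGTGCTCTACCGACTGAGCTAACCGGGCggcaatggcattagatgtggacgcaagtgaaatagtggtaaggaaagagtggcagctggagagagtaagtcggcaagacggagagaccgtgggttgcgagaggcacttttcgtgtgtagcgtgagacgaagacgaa
F46G11.4, chrX:5801210-5801409: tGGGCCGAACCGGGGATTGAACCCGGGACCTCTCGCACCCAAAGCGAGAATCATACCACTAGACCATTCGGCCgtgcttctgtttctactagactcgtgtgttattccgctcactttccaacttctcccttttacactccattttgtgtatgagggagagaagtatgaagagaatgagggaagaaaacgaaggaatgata

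Across the whole list, X held 20.7% of the pooled regions (Wilson 95% interval 19.5 to 22.0), while it makes up 17.7% of the genome's length and holds 13.7% of its protein-coding genes. This corresponds to 47.0 regions per Mb on X and 38.5 on autosomes. The replicate lists placed similar shares on X, 19.1% of 11750 regions in replicate 1 and 19.5% of 30000 in replicate 2. The share on X depended on signal: X held 8 of the 10 strongest pooled regions, 22 of the strongest 50, 121 of the strongest 500 and 420 of the strongest 2000 (21.0%). Over these longer lists the share on X was therefore close to that of the full list.

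Signal, the authors' own score for each region, had nearly the same middle range on X and on autosomes, with a median of 26.2 against 26.1 and quartiles of 24.1 and 30.2 against 24.1 and 30.1. The groups separated at the top, where the 95th percentile was 56.4 on X and 46.7 on autosomes and the highest value was 296 on X and 210 on autosomes. These scores have no replicate error and were read only within the pooled list. A q-value at or under 0.05 was listed for 87 X regions (10.5%) and 236 autosomal regions (7.43%).

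**Figure D1:**
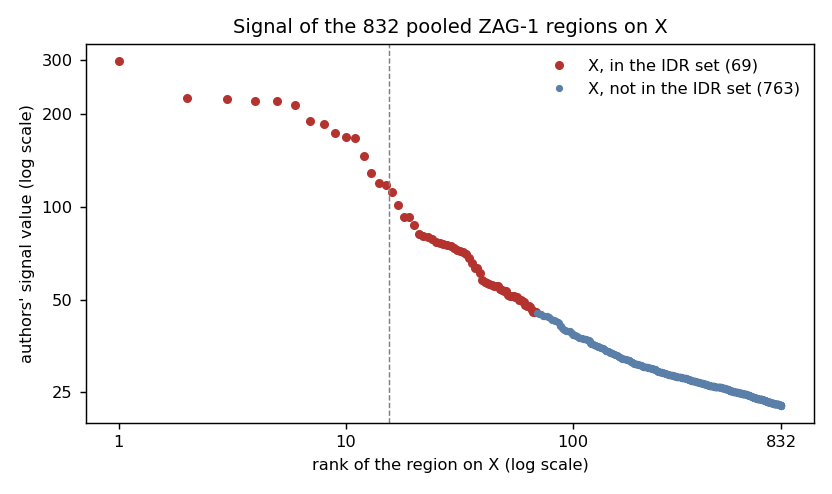
Signal value of each of the 832 X regions (vertical, log scale, the authors' unit) by its rank on X (horizontal, log scale), with the 69 IDR regions in red, the 763 others in blue and a dashed line after the 15th region. Values run down from 296 to 118 over the first 15 regions, and the IDR set ends at 45.6.

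Regions in the IDR set made up 8.29% of X regions (69 of 832) and 5.57% of autosomal regions (177 of 3178), against 6.13% of the pooled list as a whole (Fisher's exact test, 2-sided, adjusted p = 0.00896 over 8 features). The 69 were also the X regions among the 246 strongest of the pooled list, so this share is not separate from the signal ranks above. With its 15 strongest regions left out, X had 54 of 817 (6.61%) and the unchanged autosomes 5.57%, which was not past the threshold (Fisher's exact test, adjusted p = 0.366). All 15 are IDR members and no autosomal region was removed, so a lower X share was fixed by this removal and does not locate the difference. All p-values here are over regions of 1 combined experiment and not over worms, and neighbouring regions are not independent. The X members just inside the IDR set lay near nmat-1, an NAD synthesis gene, the kinesin gene klp-13 and F57G12.1, each with signal 45.6. Just outside it were regions near the nuclear receptor gene nhr-3 (45.1), W02H3.3 (44.9) and unc-10, a gene of the synaptic active zone (44.8).

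X held 15 of the 25 strongest pooled regions, and these 15 were led by sites far from gene starts. The strongest, downstream of the W02H3.3 start by 3994 bp, had signal 196 and rank 1 in replicate 1 and signal 101 and rank 2 in replicate 2. The region 6043 bp upstream of K02D3.1 ranked 2 in replicate 1 (signal 166) and 23 in replicate 2 (signal 50.2). In an annotated intron 3365 bp upstream of cest-16, a carboxylesterase gene, the region ranked 10 in replicate 1 (signal 118) and 1 in replicate 2 (signal 102). Each of these was therefore near the top of both lists, although the replicates differ in scale and length and their signals are not compared with each other.

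The others among the 10 strongest also stood high in both replicates. The region near ZK899.6 ranked 4 in both replicates, that near F20B6.9 ranked 3 in replicate 1 and 5 in replicate 2, and that near nspc-17 ranked 9 in replicate 1 and 6 in replicate 2. The region 4840 bp upstream of xol-1, the switch gene that sets male fate, ranked 13 in replicate 1 and 3 in replicate 2. Those near T27A8.7, Y41G9A.17 and F55G7.5 ranked 5, 11 and 16 in replicate 1 and 24, 15 and 8 in replicate 2. Over all 15, the lowest-placed region ranked 29 in replicate 1 and 36 in replicate 2. Their signals ran between 64.6 and 196 in replicate 1 (median 118) and between 39.6 and 102 in replicate 2 (median 62.4).

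Of these 15 regions, 2 lay within 1000 bp of a protein-coding start, those upstream of nspc-17 (702 bp) and fbxb-58 (988 bp), and 12 lay outside protein-coding genes. The median distance to a start over all 15 was 2560 bp. They lay along most of X, with gaps of 425677 to 1739896 bp between neighbours (median 1216230 bp) and at most 2 in any 1 Mb bin, a description of so few regions on a long chromosome. Regions narrower than the common width of 340 bp numbered 7 on X, from 85 to 208 bp wide, all among X ranks 1 to 9, and 2 on autosomes.

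**Figure D2:**
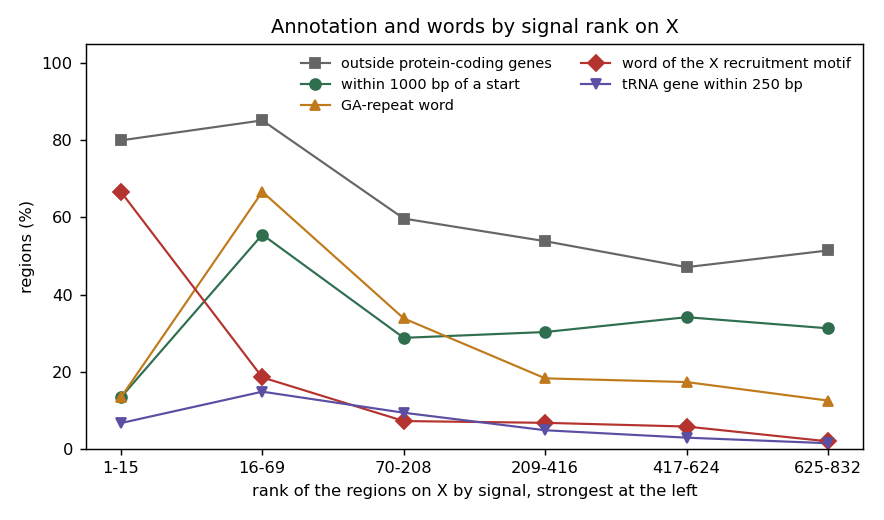
Percent of X regions (vertical) with each feature, in 6 groups by signal rank on X (horizontal, strongest at the left). The word of the recruitment motif (GCGCAG) falls to 18.5% after the first 15 regions, while the GA-repeat word and gene starts peak at ranks 16 to 69, at 66.7% and 55.6%.

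The word ATCGCGCAGGGA was in 7 of the 15 strongest X regions exactly and in 10 of 15 with at most 1 mismatch within 150 bp of the summit, and 7 regions held 2 matches. Among the 10 printed above, those near K02D3.1, ZK899.6 and T27A8.7 have no capitals and hold no such match. Both matches at xol-1 were exact and on opposite strands. With 1 mismatch allowed, the word was in 0 of 54 regions of X ranks 16 to 69, 2 of the 763 regions below these, 0 of 177 autosomal IDR regions and 0 of 3001 other autosomal regions. In the whole genome there were 38 such matches on X (2.14 per Mb), 18 of them in pooled regions, and 46 on autosomes (0.557 per Mb), 0 of them in pooled regions. The word was picked from these 15 regions, so its share in them is a description and carries no test. Its letters resemble the motif known from recruitment elements, as background, but no motif model was compared.

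The shorter word GCGCAG is part of the known recruitment motif. It was chosen with earlier results of these data known, so its p-values do not rest on an independent choice. GCGCAG was within 100 bp of the summit in 60 X regions (7.21%) and 121 autosomal regions (3.81%; Fisher's exact test, adjusted p = 0.000419 over 6 words). Single autosomes ranged from 3.02% to 4.55%. Without the 15 strongest X regions the values were 6.12% and 3.81% (adjusted p = 0.0291, Fisher's exact test), and the word was in 2.35% of all windows of this size on X. It was in 10 of the 15 strongest regions, 10 of 54 at ranks 16 to 69, and 4 of the 208 weakest. The letters of GCGCAG lie within the 12-base word, so these counts overlap.

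Regions at X ranks 16 to 69 lay mostly near gene starts. Their signals ran between 45.6 and 112, 30 of 54 (55.6%) lay within 1000 bp of a protein-coding start, and 27 of the 30 had their summit upstream (median distance 329 bp). The strongest of this kind were upstream of ins-39, an insulin-like peptide gene (signal 101, 648 bp), F28C10.3 (92.9) and ftt-2, a 14-3-3 gene (92.8). GAGAGA was within 100 bp of 36 of the 54 summits (66.7%), against 2 of the 15 strongest regions and 26 of the 208 weakest (12.5%), and 20 of the 30 regions near a start held it. The median GC content of the summit windows was 51.0% at these ranks, against 40.8% in the 15 strongest and 35.6% in the 208 weakest. The part that base composition has in the counts of words was not tested.

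Over the 69 X regions of the IDR set, GAGAGA occurred 1.19 times per summit window and 0.145 times in flanking windows 500 bp to each side, which is 1.04 more (standard error 0.25, over regions). Overlapping matches were each counted, so a longer repeat adds more than 1 to these values, and 38 of the 69 windows held the word. Over the other 763 X regions GAGAGA occurred 0.391 times at the summit and 0.126 times in the flanks. The repeat was thus denser at summits than beside them in both sets. The share of X regions with GAGAGA, 185 (22.2%), did not differ past the threshold from that on autosomes, 634 (19.9%; Fisher's exact test, adjusted p = 0.177).

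The other words gave no call between X and autosomes in the full list. CACACA was in 17.1% of X and 13.9% of autosomal regions, and CGTCTC in 10.1% and 12.8% (Fisher's exact test, adjusted p = 0.0747 for each). ACGCAG was in 9.62% of X and 10.7% of autosomal regions (Fisher's exact test, adjusted p = 0.408). The ZEB-type word CAGGTR, meaning CAGGTA or CAGGTG, was in 10.2% of X and 8.34% of autosomal regions (Fisher's exact test, adjusted p = 0.146), and 9.86% of all X windows hold it. Its density at X summits was 0.108 per window, against 0.103 in the flanks, 0.0054 more (standard error 0.014). In the IDR set alone, an alternative chosen after seeing the data, 11 of 69 X regions (15.9%) and 8 of 177 autosomal regions (4.52%) held it (Fisher's exact test, adjusted p = 0.0175). At these 69 X summits its density was 0.159 per window, against 0.123 in the flanks. That difference, 0.036, is smaller than its standard error of 0.054, so the word was not clearly denser at these summits than beside them.

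By annotation, X summits lay outside protein-coding genes more often than autosomal ones, in 458 of 832 regions (55.0%) against 1409 of 3178 (44.3%; Fisher's exact test, adjusted p = 1.16e-07). They lay within 1000 bp of a protein-coding start less often, in 271 regions (32.6%) against 1368 (43.0%; adjusted p = 1.16e-07, Fisher's exact test). Every single autosome was below X in the first share (41.2% to 45.7%) and above it in the second (38.6% to 45.9%). The chromosomes differ in the same directions in their bases. Outside protein-coding genes lie 44.5% of X bases and 35.8% of autosomal bases, and within 1000 bp of a start lie 28.9% of X bases and 36.0% of autosomal bases. The part this has in the shares was not tested. In the IDR set alone, chosen after seeing the data, 58 of 69 X summits (84.1%) and 123 of 177 autosomal ones (69.5%) were outside genes, and 46.4% and 61.6% near a start, neither past the threshold (Fisher's exact test, adjusted p = 0.0758 for each).

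Introns held 228 X summits (27.4%) and 1030 autosomal ones (32.4%; Fisher's exact test, adjusted p = 0.00896), a call lost when the 4010 strongest regions of a single replicate were used (Fisher's exact test, adjusted p = 0.43 without replicate 1 and 0.242 without replicate 2). The lowest single autosome was at 27.5%. Coding exons held 106 X summits (12.7%) and 496 autosomal ones (15.6%; Fisher's exact test, adjusted p = 0.0581), a difference that passed in both single-replicate lists (Fisher's exact test, adjusted p = 0.00999 without replicate 1 and 4.41e-05 without replicate 2). In the pooled list chromosome I was slightly below X in this share, at 12.6%, and the highest autosome was at 18.8%. Of the bases, 30.6% of X and 33.7% of autosomes are intronic, and 19.97% of X and 25.6% of autosomes are coding exon, differences in the same direction as the summits, whose part was not tested. X summits numbered 10 in 5′ UTRs and 30 in 3′ UTRs. In the IDR set, 1 of 69 X regions (1.45%) and 5 of 177 autosomal regions (2.82%) were in a coding exon. The X region was at chrX:5429390-5429729, with signal 118. The strongest 3′ UTR region was also at ftt-2, with signal 56.2, and the strongest intron region after those near cest-16 and Y41G9A.17 was at ldb-1, a LIM-domain binding gene, with signal 73.4. Regions outside genes and over 5000 bp from a start numbered 56, and after K02D3.1 the strongest were near C30E1.4 (76.8) and the kinase gene mig-15 (51.3).

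**Figure D3:**
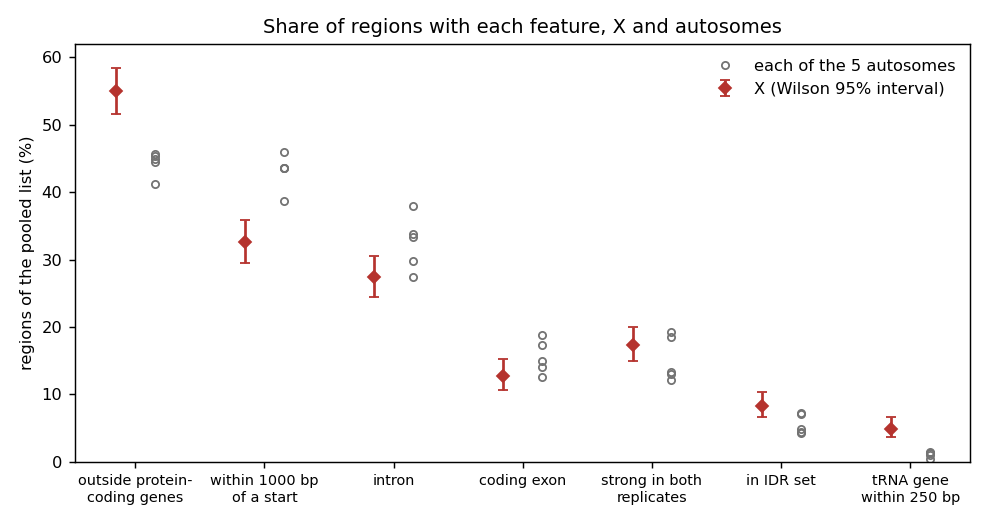
Percent of pooled regions with each feature (vertical), on X (red diamonds with Wilson 95% intervals) and on each of the 5 autosomes (open circles). X stands above every autosome in the shares outside genes (55.0%) and at tRNA genes (4.93%) and below every autosome in the share near a start (32.6%).

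Summits at tRNA genes gave the smallest adjusted p of the 8 features compared between X and autosomes. A tRNA gene lay within 250 bp of 41 X summits (4.93%) and 35 autosomal summits (1.10%; Fisher's exact test, adjusted p = 9.9e-10), and single autosomes ranged from 0.474% to 1.49%. X carries 276 of the 612 annotated tRNA genes. Counted per gene, 48 of 276 tRNA genes on X (17.4%) and 39 of 336 on autosomes (11.6%) had a summit within 250 bp, against 14.2% of all, a smaller difference that was added after seeing the data (Fisher's exact test, 2-sided, p = 0.0479). The per-gene call was lost within 100 bp (p = 0.0668, Fisher's exact test). Chromosome III alone reached 18.75%.

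The tRNA genes with a region on X served 17 kinds of tRNA, among them 5 of 23 genes for tRNA-Glu, 5 of 17 for tRNA-Leu and 5 of 20 for tRNA-Pro, and none of 9 for tRNA-His, 13 for tRNA-Ile or 5 for tRNA-Trp. Of the 41 regions, 27 lay outside protein-coding genes and 11 in introns, and 30 were not within 1000 bp of a protein-coding start. Their median signal was 32.0, with a range of 23.3 to 189, against 26.1 for the other X regions. In the IDR set, 9 of 69 X regions and 0 of 177 autosomal regions were at tRNA genes, which allows an autosomal share of up to 1.69%. The strongest was the xol-1 region, 212 bp from the tRNA-Arg gene C18A11.t2. After it came M02F4.t1 (signal 80.6, 38 bp, rank 38 in replicate 1 and 81 in replicate 2) and R04A9.t1 (signal 72.5, 79 bp, rank 61 in replicate 1 and 1474 in replicate 2).

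Many tRNA genes are near-identical copies, whose reads cannot be told apart by sequence. In 29 of the 41 regions under 90% of the 31-base words around the summit occur once in the genome, against 35 of all 832 X regions. In the IDR set this held for 8 X regions. Among them were those at the tRNA genes M02F4.t1, C28G1.t1, W03G11.t1, F46G11.t2, R11.t1 and F41D9.t3, so the IDR count at tRNA genes has the same limit. With regions of unique sequence only, an alternative chosen after seeing the data, tRNA genes were near 12 of 797 X summits (1.51%) and 11 of 3064 autosomal summits (0.359%; Fisher's exact test, adjusted p = 0.00207). Per gene, 12 of 276 tRNA genes on X (4.35%) and 11 of 336 on autosomes (3.27%) then had such a region (Fisher's exact test, p = 0.527). All tRNA genes stayed in these denominators, so the values are not shares among genes of unique sequence. The 15 strongest X regions consist wholly of such unique words. Which copies were bound was not tested.

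Other non-coding RNA genes were rarely close. On X, 3 regions had a long intergenic RNA gene within 250 bp, 2 a snoRNA gene and 1 a miRNA gene, where X has 38, 33 and 74 such genes in this order. The strongest was 393 bp upstream of rpl-11.2, a ribosomal protein gene (signal 75.6), followed by those near C39E6.2 (38.3) and 250 bp upstream of sdha-1, a succinate dehydrogenase gene (35.6).

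Among protein-coding genes of X, 590 of 2731 (21.6%) had the start closest to some summit, at 5000 bp or less, and the median signal at these was 26.5. The lists below were compared with that share as a description only. Sex determination and dosage compensation genes had 3 of 6 members, xol-1 with its strong region and 2 at low signal, sdc-1, a dosage compensation gene (27.2), and ceh-39, an X signal element gene (26.4). Heterochronic genes, which time larval development, had 4 of 5 members, daf-12, a steroid receptor gene in the IDR set (49.0), lin-14 and hbl-1 (31.8 each), and nhr-25 (29.2). A stronger intron region (44.0), 7101 bp downstream of the lin-14 start, lay beyond the 5000 bp limit. The hbl-1 and nhr-25 regions were overlapped in replicate 1 alone. Nuclear hormone receptors had 11 of 23, led by nhr-1 (74.3) and nhr-14 (47.7), both in the IDR set. The nhr-14 region ranked 146 in replicate 1 and 15533 in replicate 2, while the nhr-1 region ranked 137 in replicate 1 and 57 in replicate 2.

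Of all X protein-coding genes, 62 of 2731 had an IDR region, so few would be counted in lists as short as the neuronal ones. Synapse and excitability genes had 8 of 15, among them unc-10 (44.8), the calcium channel gene cca-1 (34.1), the potassium channel genes unc-58 (26.4) and slo-2 (26.2), and nlg-1, which encodes neuroligin (25.7). The cca-1 and unc-58 regions were overlapped in replicate 2 alone, and those of slo-2 and nlg-1 in replicate 1 alone. Axon guidance and adhesion genes had 4 of 12, unc-115, an actin-binding gene (37.9), the FGF gene egl-17 (37.2), the ephrin gene efn-3 (33.3) and the syndecan gene sdn-1, at X rank 531. Neuron fate transcription factors had 1 of 12, the proneural gene lin-32 (36.9), whose region lies 2909 bp from its start and on a tRNA-Asp gene, and touch neuron genes 2 of 7, mec-7, a tubulin gene (26.3), and mec-2 (22.9). The efn-3, sdn-1 and mec-7 regions were overlapped in replicate 1 alone, and that of mec-2 in replicate 2 alone. FMRFamide-like peptide genes had 0 of 13 and neuropeptide-like genes 2 of 19, while 1 of 2 insulin-like genes, ins-39, was in the IDR set.

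Other lists stood at or below the share of all X genes, except the ribosomal protein genes, with 2 of 2 (rpl-11.2 at 75.6 and rpl-25.1 at 25.2). Homeobox genes named ceh had 2 of 18, muscle structure genes 2 of 13, vitellogenins 1 of 5 and collagen genes 2 of 27, of which col-181 (55.4) was in the IDR set. Several regions of list members are also at tRNA genes, those of xol-1 (C18A11.t2, 212 bp), lin-32 (T14F9.t1, 0 bp), egl-17 (F38G1.t2, 13 bp), col-181 (W03G11.t1, 37 bp), unc-58 (T06H11.t2, 42 bp) and nhr-255 (ZK678.t1, 0 bp). Whether these belong to the protein-coding or the tRNA gene was not tested. The length of DNA that flanks each gene was not adjusted for.

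Support by the replicates fell quickly with signal. Of the 832 X regions, 632 (76.0%) were overlapped by a region of replicate 1, 647 (77.8%) by one of replicate 2, 470 (56.5%) by both and 23 by neither. With each replicate list limited to its strongest 4010 regions, 144 X regions (17.3%) and 482 autosomal regions (15.2%) were overlapped in both, against 15.6% of the pooled list (Fisher's exact test, adjusted p = 0.152). Under the stricter overlap of 50% of the shorter region or with summits within 100 bp the difference passed the threshold (adjusted p = 0.0273 and 0.0254, Fisher's exact test). In the main count chromosomes I (19.3%) and III (18.5%) had more support by both than X, and II, IV and V less (12.1% to 13.4%). Such support covered all 15 of the strongest X regions, 52 of 54 at ranks 16 to 69, 52 of 139 at ranks 70 to 208 and 5 of the 208 weakest. The pooled list was made from the same alignments, so this support describes the list and does not test it.

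Signals of the replicates were also compared across X regions. Over the 69 X regions of the IDR set the signals of the replicates had a Spearman rho of 0.638, and over the 401 other X regions overlapped in both it was 0.0113. Over all 470 it was 0.330. The IDR set was kept by the authors for reproducibility. On X it was also the 69 regions of highest pooled signal (lowest 45.6, against a highest of 45.1 in the others). The others span a narrow range of pooled signal, so the values describe these sets and their difference is no result. At ranks 16 to 69 the median rank was 122 in replicate 1 and 232.5 in replicate 2, and the lowest-placed region reached 1158 in replicate 1 and 15533 in replicate 2.

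**Figure D4:**
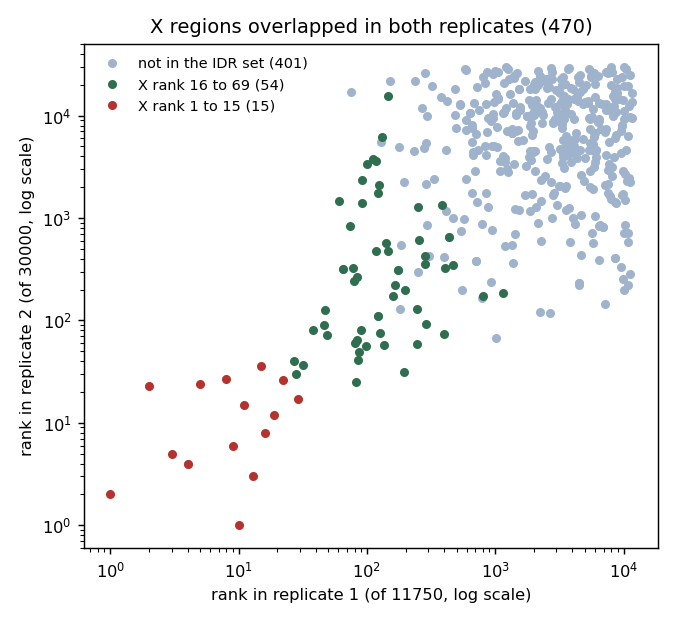
Rank in replicate 1 (horizontal, log scale) against rank in replicate 2 (vertical, log scale) for the 470 X regions overlapped by a region of both, with the 15 strongest in red, ranks 16 to 69 in green and the rest in blue. The red points stay at or under rank 29 in replicate 1 and 36 in replicate 2, and the blue points fill the upper right with no visible order.

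Spacing along X was counted in bins of 1 Mb and 100 kb and was not compared with random placement. Full 1 Mb bins held 34 to 56 summits (median 49) and 1 to 7 IDR summits. The gap between neighbouring summits had a median of 13066 bp, quartiles of 4385 and 27881 bp and a longest value of 258683 bp, from position 12386 to 271069 near the left end. Bins of 100 kb held 0 to 14 summits (median 4). The densest were chrX:6700001-6800000 with 14 summits and 15 protein-coding starts, chrX:11400001-11500000 with 13 summits and 13 starts, and chrX:8000001-8100000, which contains the xol-1 region, with 12 summits and 16 starts. They held 1, 0 and 1 IDR summits in this order, where 8.29% of all X regions are in the IDR set.

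Close pairs were not called as a feature of X. Another summit lay within 1000 bp of 97 X summits (11.7%) and 338 autosomal ones (10.6%; Fisher's exact test, p = 0.416). In the strongest regions of replicate 1 the difference passed the threshold, at 2.79 percentage points (Fisher's exact test, adjusted p = 0.0284). On X 52 gaps were under 1000 bp and 14 under 500 bp, and 14 pairs of neighbours overlapped, so some listed regions share bases. Between neighbouring IDR regions the median gap was 156404 bp and the smallest 2350 bp, values that depend on their lower number.

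**Figure D5:**
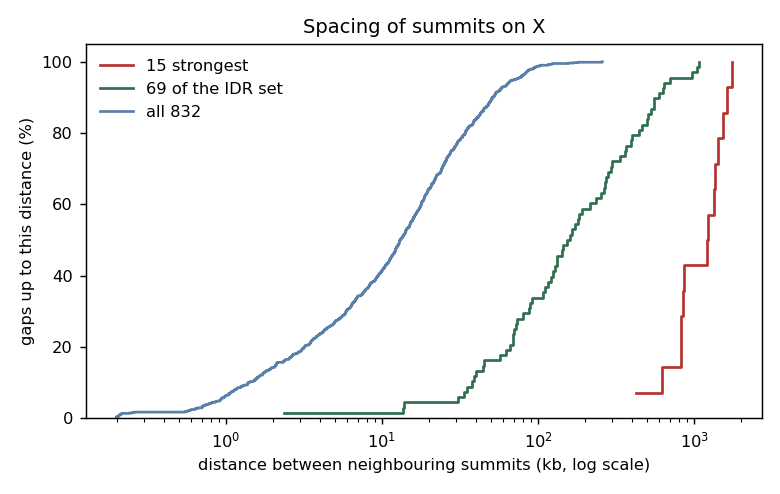
Cumulative percent of gaps (vertical) up to each distance between neighbouring summits on X (horizontal, kb, log scale), for the 15 strongest regions, the 69 of the IDR set and all 832. The medians are 1216230, 156404 and 13066 bp, and fewer regions on the same chromosome give wider gaps, so the distance between the curves is no result.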

How the data were processed

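The series holds ChIP-seq peak lists of 2 biological replicates of whole L4 worms, a pooled list and an optimal IDR list, in ce11 and ce10. Per the deposited text listings, the pooled list came from both replicates' alignments and the IDR list from the pooled and replicate lists. Not given in the sources used here are the aligner, the peak caller, the IDR threshold and the read depth. The signal value of each region, as deposited by the authors, is in their caller's own unit and was used only within a list. The −log10 q-value, as deposited by the authors, served only to count regions at or under 0.05.

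X members were the rows of the ce11 pooled list on X, and a summit is the listed start plus the summit offset. Positions are 1-based on WBcel235, with Ensembl 115 annotation. A summit in several features was counted once, coding exons before UTRs (5′ before 3′), and these before other exons and introns. X was compared with autosomes by Fisher's exact test, 2-sided (scipy 1.17.1), adjusted by Benjamini-Hochberg over 8 features or 6 words, with a threshold of 0.05. Where an alternative setting left a feature out, the adjustment was over the features that remained. Shares have Wilson 95% intervals, which cover counting error only. Replicate support needed an overlap of 1 bp. Regions named were the 10 strongest on X, the 3 strongest of each annotation class, the 3 on each side of the lowest IDR signal, the 3 densest 100 kb bins and list members with a region. Alternatives were other distances, windows and overlaps, the ce10 lists, the stronger 50% of regions, and the 4010 strongest regions of the other replicate when 1 was left out. Members, lists and words were chosen with earlier results of these data known. The procedures were tested on simulated data.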

Additional observations from a re-analysis of the deposited data

How the results depend on the processing

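No paired analysis was possible because the series has a single group of samples. Differences are X minus autosomes in percentage points, and the causes of the changes were not tested, except that a setting with fewer regions tests fewer. Of the alternative values, 90 kept direction and call, 9 lost a call, 11 gained one and 8 changed direction, none of these 8 past the threshold. The shares outside genes, near starts, at tRNA genes and with GCGCAG kept direction and call in every alternative run, apart from the IDR set alone (below). With each replicate left out, the intron difference ran from -2.19 to -1.52 and lost its call, coding exons from -6.62 to -3.64 and gained one, GAGAGA from -0.205 to 2.08, ACGCAG from 0.455 to 0.554, CGTCTC from -1.60 to 0.00837, and close pairs from 1.87 to 2.79, the last of which (without replicate 2) passed. In the stronger 50% of regions introns were at -5.12 and lost their call. Replicate support passed with an overlap of 50% (3.14) and with summits within 100 bp (2.95). Close pairs within 500 bp were at -0.474. With 50 bp windows GAGAGA was at -0.599 and CACACA, which passed, at 3.84; with 200 bp windows CACACA (4.58) and ACGCAG (-3.26) passed. Chosen after seeing the data, the IDR set alone gave 14.6 outside genes, -15.2 near starts and -8.18 in introns, no longer past the threshold, -1.18 for close pairs, -1.13 for CACACA and 11.4 for CAGGTR, which passed. Also chosen then, summits outside genes gave -5.46 for CGTCTC and 3.58 for CAGGTR, both past it. Without the 15 strongest X regions the IDR difference was 1.04 and lost its call, where the removal of IDR members from X alone fixes the decrease. The per-gene tRNA difference lost its call within 100 bp (4.77) and in unique sequence (1.07).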
